A study of Drosophila melanogaster with 32 samples.

Results

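The genes examined here were 10 axon guidance genes of Drosophila melanogaster. They were the ligand gene sli, its receptor genes robo, lea and robo3, the Netrin genes NetA and NetB, the Netrin receptor genes fra and unc-5, and the semaphorin genes Sema-1a and Sema-2a. They were taken by name from a table of 14161 genes, by a rule with no threshold on their values, and 10 of 10 passed the low-count filter that left 10224 genes for testing. In current nomenclature robo is robo1, lea is robo2, Sema-1a is Sema1a and Sema-2a is Sema2a.

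Guidance genes steer growing axons through ligands that are secreted or carried on cells and receptors on the growth cone. Slit, the product of sli, is a secreted protein that repels axons through the Robo receptors. Netrins are laminin-related secreted proteins that attract axons through Frazzled, the product of fra and the fly counterpart of DCC, and repel them through Unc-5. Semaphorins act largely as repellents through plexin receptors, and the transmembrane Sema-1a can also work as a receptor itself. In the fly visual system these families help axons to reach the correct neuropil layer.

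RNA was sequenced from brains of larvae in instar 3, with 500 brains per preparation. All brains carried ipcGal4 and UASRpl10Ab::GFP, a GFP-tagged ribosomal protein driven in cells that the labels name T4/T5 neurons, the motion-sensing neurons of the optic lobe. One portion of each homogenate, 10%, gave the input library, and the rest was immunoprecipitated with an antibody to GFP to give the IP library of ribosome-bound RNA. The other genotype also carried ato1, labelled a loss of function of ato, which encodes the proneural transcription factor Atonal. The 4 groups were thus wild-type input, wild-type IP, ato input and ato IP, with 2 libraries each. An IP from brains without the tag was not analysed here, and the labels do not say whether replicates came from separate crosses, so p-values measure the spread between these preparations.

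Total counts ran from 7780123 to 12238648 per library, and the 10 guidance genes took 0.0655% to 0.0802% of the counts in inputs and 0.0845% to 0.127% in IPs. The 8 markers of T4/T5 neurons summed to 572 to 593 CPM in wild-type inputs and 843 to 870 CPM in wild-type IPs, and to 405 to 449 CPM and 527 to 665 CPM in the ato inputs and IPs. CPM is the count of a gene relative to the TMM-adjusted total of its library. Of these markers 3 of 8 rose in IP in wild type, beside 17.3% of all genes tested, 4 of 8 rose in ato, beside 11.9%, and none was at 0 in any library. Neuron markers summed to 1310 to 1459 CPM in inputs and 1872 to 2291 CPM in IPs. The 9 muscle markers summed to 100.5 to 105 CPM in wild-type inputs, 261 to 470 CPM in ato inputs, 544 to 698 CPM in wild-type IPs and 829 to 1708 CPM in ato IPs. Glial markers summed to 822 to 914 CPM in the 4 wild-type libraries and 1414 to 1631 CPM in the 4 ato libraries. In ato inputs 4 of 9 glial markers were called higher and 1 lower, beside 4.64% and 2.34% of all genes. Photoreceptor markers summed to 85.9 to 116 CPM in wild type and 16.5 to 46.3 CPM in ato, with ninaE at 0 in 6 libraries. Of the 4 tested, 2 were called lower in ato inputs, beside 2.34% of all genes, and 1 in ato IPs, beside 1.88%. In IPs sev had 34.7 and 15.9 CPM in wild type and 29.6 and 28.9 CPM in ato, so the sum does not describe each marker. The allele label does not say what ato1 does to its own RNA, so the level of ato did not check the genotype. The wild-type IP replicates differed most from each other over all genes (chi-square 31.3 per degree of freedom), and the wild-type inputs least (9.48).

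All 10 genes are long. Their annotated exons covered 3242 bases in NetA to 9563 bases in Sema-1a, against a median of 1980 bases among genes tested. In dm3, on chromosome 2R, sli spanned 11760176 to 11809623 on the minus strand, robo spanned 18580029 to 18588467 on the minus strand, fra spanned 8416561 to 8451691 on the plus strand, unc-5 spanned 11237659 to 11255807 on the plus strand and Sema-2a spanned 12387701 to 12420934 on the plus strand. On chromosome 2L, robo3 spanned 1256826 to 1293835 on the plus strand, lea spanned 1380086 to 1420449 on the minus strand and Sema-1a spanned 8542009 to 8671276 on the plus strand. On chromosome X, NetA spanned 14498045 to 14547864 and NetB spanned 14581645 to 14643407, both on the minus strand. The Netrin genes thus lay 33780 bases apart with 1 gene, CG5321, between them, and robo3 and lea lay 86250 bases apart with 12 genes between them. Reads were counted over exons without regard to strand. Exons of sli overlapped those of CG33464 over 7.2% of their length, those of unc-5 overlapped Pms2 over 4.6%, and the other 8 genes shared no exon base with another gene.

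Scaled to exon length, Sema-2a had the highest level of the 10 genes in each group and robo the lowest. The level of Sema-2a in wild-type input was 52.5 ± 4.63 CPM per kb (SD, n = 2), that of unc-5 was 19.1 ± 0.172 and that of robo was 4.15 ± 0.0188. Between them, robo3 at 16.9 ± 1.12 and fra at 16.8 ± 0.911 CPM per kb differed by less than their spread. NetB followed at 11.5 ± 0.212, lea at 10.8 ± 0.204 and Sema-1a at 8.95 ± 0.955 CPM per kb, each step wider than the larger SD of the pair. NetA at 5.45 ± 0.899 CPM per kb was again lower by more than the SD. The steps from NetA to sli at 4.79 ± 0.782 and from sli to robo were smaller than the larger SD of the pair. In ato input, Sema-2a was again first at 49.4 ± 3.70 CPM per kb, and the last 4 places were held by Sema-1a, NetA, sli and robo.

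In IPs Sema-1a and robo3 moved most in this order. Sema-1a stood 7th in both inputs and 2nd in both IPs. The gene robo3 went from place 3 in wild type and place 2 in ato to place 7 in both. The gene lea went from place 6 to place 3 in wild type and place 4 in ato. In wild type unc-5 went from place 2 to place 5, and in ato fra went from place 3 to place 6. The level of Sema-1a in IPs was 23.3 ± 0.474 CPM per kb for wild type and 20.5 ± 2.85 for ato. In ato input it was 8.26 ± 1.14. In wild-type IP, Sema-1a was followed by lea at 23.1 ± 1.30 and fra at 20.9 ± 5.77 CPM per kb. Then came unc-5 at 19.6 ± 6.62 and NetB at 19.5 ± 2.96. Each step between neighbours was smaller than the larger SD of the pair. NetB itself was below Sema-1a and below lea by more than the larger SD of those pairs. Sema-2a stayed first in IPs, with 43.1 ± 11.1 CPM per kb for wild type and 38.0 ± 1.88 for ato. The last 3 places in each group were held by NetA, sli and robo.

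**Figure D1:**
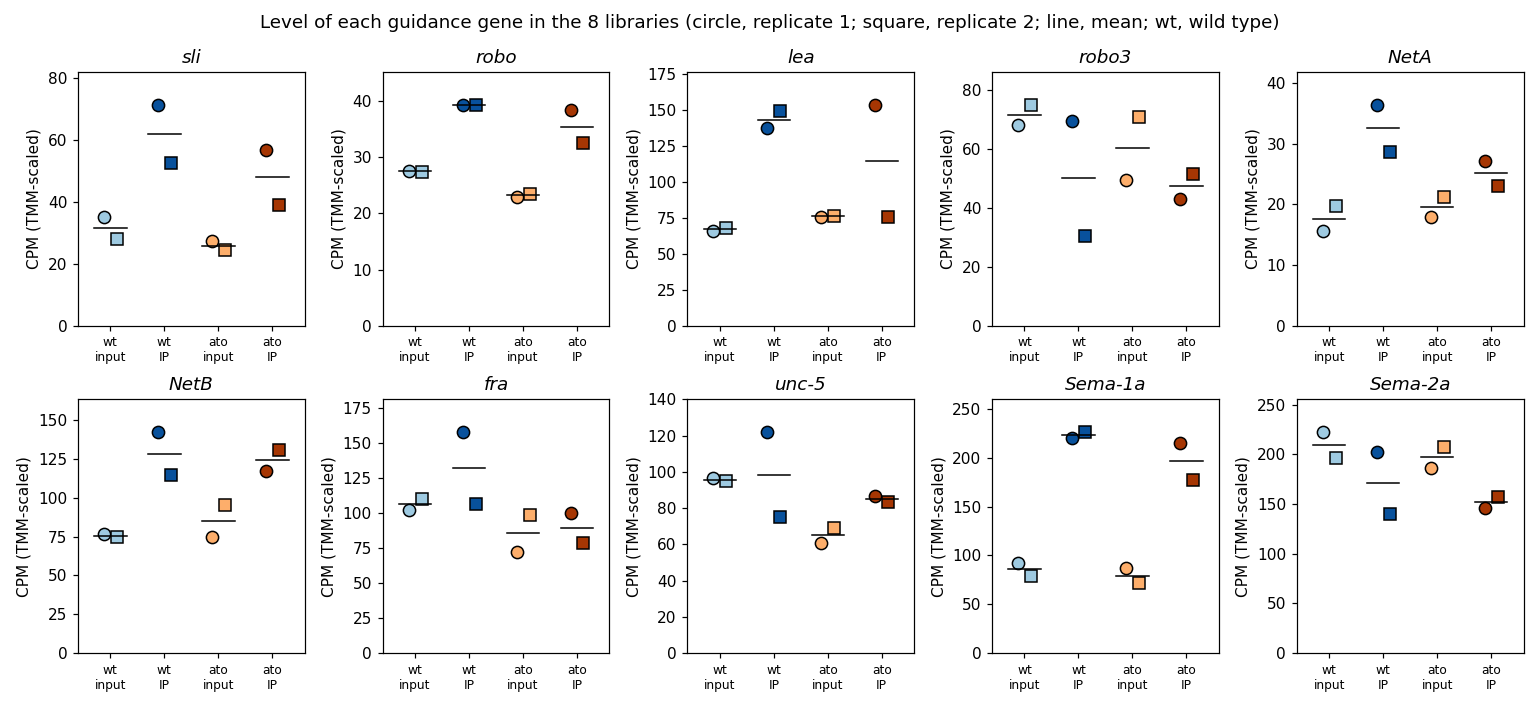
Level of each of the 10 guidance genes in the 8 libraries, in CPM on a linear axis from 0, with a circle for replicate 1, a square for replicate 2 and a line at the group mean. Sema-1a sits between 177 and 226 CPM in the 4 IP libraries and between 71.3 and 92.1 CPM in the 4 inputs, while the robo3 groups overlap.

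The first question was which of these RNAs were higher in the IPs than in the whole-brain inputs. In wild type, 5 of 10 guidance genes rose in IP over input, namely sli, lea, NetA, NetB and Sema-1a, and 0 fell. The background was 17.3% of all genes tested higher and 18.4% lower (edgeR quasi-likelihood test, Benjamini-Hochberg adjusted p below 0.05, which is the rule for every call here). In ato, 4 of 10 rose, namely sli, robo, NetB and Sema-1a, and 0 fell, against a background of 11.9% higher and 16.3% lower. At an unadjusted p below 0.05, 6 genes in wild type and 5 in ato passed, all of them higher in IP, beside 45.5% and 39.1% of all genes tested in either direction. The median log2 ratio of the 10 genes was 0.64 in wild type and 0.47 in ato, beside 0.06 and 0.02 for all genes tested. Counting Sema-1a among them, ligand genes supplied 4 of the 5 genes that rose in wild type and 3 of the 4 in ato. The ligand genes were sli, NetA, NetB, Sema-1a and Sema-2a. Sema-2a was not called, at -0.28 in wild type and -0.38 in ato. Whether ligand and receptor genes differed was not tested. With the exon-length trend removed, as given below, the calls of sli, NetB and, in ato, robo were lost. In that fit Sema-2a was called lower in both genotypes. In bulk libraries, fewer cells of a type and less RNA per cell cannot be told apart. Neuron markers rose along with these genes, 6 of 8 in wild type and 5 of 8 in ato, and muscle markers rose 8 of 9 in both genotypes. The part of either in the ratios of the guidance genes was not tested.

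The Slit ligand gene sli had 35.2 and 28.0 CPM in the wild-type inputs and 71.3 and 52.4 CPM in the wild-type IPs. In ato it had 27.4 and 24.4 CPM in the inputs and 56.8 and 39.0 CPM in the IPs. Both IPs lay above both inputs in each genotype, and replicate 1 was the higher one in each of the 4 groups. The log2 ratio of IP to input was 0.97 ± 0.24 (SE; edgeR BH-adjusted p = 0.00557) in wild type and 0.89 ± 0.25 (edgeR BH-adjusted p = 0.0131) in ato. The wild-type call was lost without wild-type IP 1 (0.71, edgeR BH-adjusted p = 0.0575) or wild-type input 2 (0.80, edgeR BH-adjusted p = 0.0775). The ato call was lost without ato IP 1 (0.59, edgeR BH-adjusted p = 0.181) or ato input 2 (0.79, edgeR BH-adjusted p = 0.0755).

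The 3 Robo receptor genes, whose products bind Slit, did not share 1 pattern. The gene lea, for the receptor that in the embryonic nerve cord also helps to set the lateral position of axons, had 66.2 and 68.0 CPM in wild-type inputs and 138 and 149 CPM in wild-type IPs. In ato it had 75.9 and 76.2 CPM in inputs and 154 and 75.5 CPM in IPs. The wild-type groups were wide apart and the inputs close to each other, whereas ato IP 2 lay at the level of the ato inputs. The log2 ratio was 1.09 ± 0.24 (edgeR BH-adjusted p = 0.0025) in wild type. It was 0.59 ± 0.24 (edgeR BH-adjusted p = 0.0801) in ato and not called. Without ato IP 2 the ato ratio was 1.03 (edgeR BH-adjusted p = 0.00243), and without ato IP 1 it was -0.01 (edgeR BH-adjusted p = 0.996). DESeq2 size factors gave 0.70 in ato (edgeR BH-adjusted p = 0.0415). The ato ratio was also called without the low-count filter (0.56, edgeR BH-adjusted p = 0.0257). A replicate block, which takes same-numbered libraries as pairs, called it too (0.50, edgeR BH-adjusted p = 0.0394). The call in ato therefore turned on which of these libraries was kept, the scaling, the filter and the block.

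The receptor gene robo, the founding member of the family, had 27.6 and 27.5 CPM in wild-type inputs and 39.3 and 39.3 CPM in wild-type IPs. In ato it had 23.0 and 23.4 CPM in inputs and 38.4 and 32.5 CPM in IPs. The IPs were above the inputs in each genotype by a small margin. The log2 ratio was 0.51 ± 0.22 in wild type (edgeR BH-adjusted p = 0.0771), which missed the threshold, and 0.61 ± 0.22 in ato (edgeR BH-adjusted p = 0.0485), which passed it narrowly. The ato call was lost in 7 of the 8 fits that left out 1 library, the exception being wild-type IP 2. Those fits gave 0.49 to 0.74. With DESeq2 size factors the wild-type ratio was 0.59 and called (edgeR BH-adjusted p = 0.0436). The ato ratio was not called by limma-voom (BH-adjusted p = 0.0575). Nor was it called with the replicate block (0.61, edgeR BH-adjusted p = 0.0545).

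For robo3, the third receptor gene, wild-type inputs had 68.1 and 74.9 CPM and wild-type IPs had 69.5 and 30.4 CPM. In ato the inputs had 49.6 and 70.8 CPM and the IPs 43.1 and 51.5 CPM. The groups overlapped in both genotypes, and the wild-type IP replicates differed 2.29-fold, beyond the 95th percentile of 1.76 for genes with a mean of at least 10 CPM. The log2 ratio was -0.51 ± 0.29 (edgeR BH-adjusted p = 0.179) in wild type and -0.35 ± 0.29 (edgeR BH-adjusted p = 0.398) in ato. With the replicate block the wild-type ratio was -0.61 and called (edgeR BH-adjusted p = 0.0173). Without wild-type IP 1 the wild-type ratio was -1.25 (edgeR BH-adjusted p = 0.00166), and without wild-type IP 2 it was -0.03 and not called.

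The make-up of the Robo family per kb of exon shows the divergence within each library. The share of robo3 was 52.0% and 53.9% in wild-type inputs, 42.7% and 51.3% in ato inputs, 36.8% and 19.3% in wild-type IPs, and 25.0% and 41.6% in ato IPs. The share of lea was 34.6% and 33.5% in wild-type inputs, 44.7% and 37.8% in ato inputs, 49.9% and 64.7% in wild-type IPs, and 60.8% and 41.7% in ato IPs. Thus robo3 had its 4 lowest shares in the IPs, and the lowest lea share among wild-type IPs exceeded both wild-type inputs, while in ato the lea shares of inputs and IPs overlapped. The share of robo stayed between 10.9% and 16.8%. These shares rest on the same counts as the ratios above and are no separate test.

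**Figure D2:**
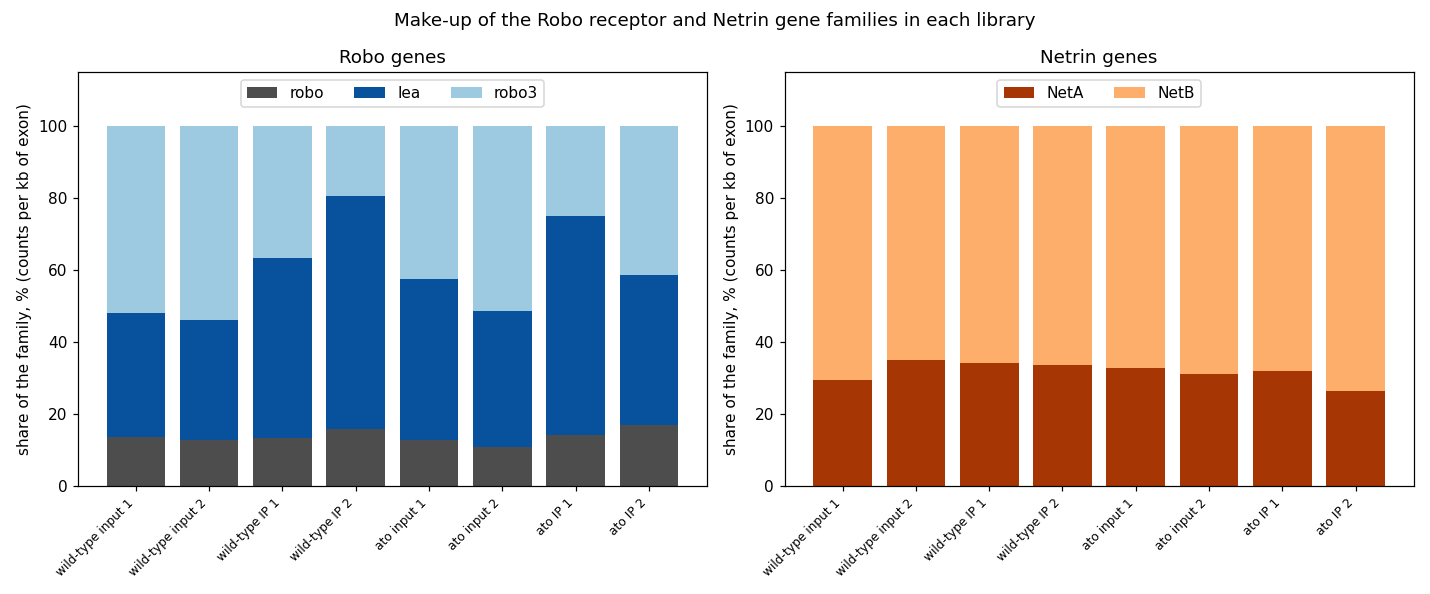
Share of each gene in the Robo receptor family (left) and the Netrin pair (right), as percent of counts per kb of exon, stacked for each of the 8 libraries. The robo3 share runs from 42.7% to 53.9% in the inputs and from 19.3% to 41.6% in the IPs, while the NetA share stays between 26.4% and 35.0%.

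Both Netrin genes were higher in IP, although NetA was called in wild type alone. NetA had 15.6 and 19.7 CPM in wild-type inputs and 36.4 and 28.7 CPM in wild-type IPs. In ato it had 17.9 and 21.2 CPM in inputs and 27.2 and 23.1 CPM in IPs. The groups did not overlap in either genotype, but in ato the nearest libraries were 21.2 and 23.1 CPM. Its log2 ratio was 0.88 ± 0.25 (edgeR BH-adjusted p = 0.0131) in wild type and 0.36 ± 0.26 (edgeR BH-adjusted p = 0.311) in ato. The wild-type call was lost without wild-type input 1 (0.71, edgeR BH-adjusted p = 0.153) or wild-type IP 1 (0.68, edgeR BH-adjusted p = 0.1).

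The second Netrin gene, NetB, had 76.5 and 74.6 CPM in wild-type inputs and 142 and 114.6 CPM in wild-type IPs. Its ato inputs had 74.99 and 95.1 CPM and its ato IPs 117 and 131 CPM. All 4 IPs lay above all 4 inputs. The log2 ratio was 0.77 ± 0.18 (edgeR BH-adjusted p = 0.00441) in wild type and 0.54 ± 0.18 (edgeR BH-adjusted p = 0.0366) in ato. Leaving out wild-type input 2 gave 0.73 in wild type (edgeR BH-adjusted p = 0.0528). In ato the call was lost in 5 of the 8 fits that left out 1 library, with 0.42 to 0.71 over all 8. Within each library NetA made up 26.4% to 35.0% of the Netrin pair per kb, so the pair kept a like make-up in inputs and IPs.

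The Netrin receptor genes were not called in either genotype in the fit with all runs summed and no trend removed. The gene fra had 102 and 110 CPM in wild-type inputs, 158 and 106 CPM in wild-type IPs, 72.5 and 98.7 CPM in ato inputs, and 100.4 and 78.4 CPM in ato IPs. Inputs and IPs overlapped in both genotypes. Its log2 ratio was 0.31 ± 0.21 (edgeR BH-adjusted p = 0.268) in wild type and 0.06 ± 0.22 (edgeR BH-adjusted p = 0.86) in ato. The 95% interval in ato ran from 0.760-fold to 1.43-fold.

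The receptor gene unc-5 had 96.4 and 95.2 CPM in wild-type inputs and 122 and 74.99 CPM in wild-type IPs. Its ato inputs had 60.8 and 69.2 CPM and its ato IPs 86.6 and 83.3 CPM. The wild-type inputs lay between the wild-type IPs, whereas both ato IPs were above both ato inputs. The log2 ratio was 0.04 ± 0.21 (edgeR BH-adjusted p = 0.897) in wild type and 0.39 ± 0.21 (edgeR BH-adjusted p = 0.187) in ato. With run 1 of each library alone the ato ratio was 0.65 and called (edgeR BH-adjusted p = 0.0441). In wild type the 95% interval of the log2 ratio was -0.40 to 0.48.

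The semaphorin genes went apart. Sema-1a, for a transmembrane semaphorin, had 92.1 and 79.2 CPM in wild-type inputs and 220 and 226 CPM in wild-type IPs. Its ato inputs had 86.7 and 71.3 CPM, and its ato IPs 216 and 177 CPM. The lowest IP, at 177 CPM, was well above the highest input, at 92.1 CPM. The ratio was 2.60-fold in wild type, with a 95% interval of 2.00 to 3.38 (edgeR BH-adjusted p = 3.19e-05). It was 2.49-fold in ato, with an interval of 1.91 to 3.23 (edgeR BH-adjusted p = 7.6e-05). Each fit that left out 1 library kept both calls.

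Sema-2a, for a secreted semaphorin, had 222 and 196 CPM in wild-type inputs and 203 and 140 CPM in wild-type IPs. Its ato inputs had 187 and 207 CPM, and its ato IPs 146 and 157 CPM. The wild-type groups overlapped, and both ato IPs were below both ato inputs. The log2 ratio was -0.28 ± 0.18 (edgeR BH-adjusted p = 0.241) in wild type and -0.38 ± 0.18 (edgeR BH-adjusted p = 0.14) in ato. Without wild-type IP 1 the wild-type ratio was -0.59 (edgeR BH-adjusted p = 0.0318), and without wild-type IP 2 it was -0.04 and not called. The count of Sema-1a over that of Sema-2a in the same library was 0.414, 0.404, 0.465 and 0.344 in the inputs and 1.08, 1.61, 1.47 and 1.13 in the IPs, with no overlap.

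Groups of libraries without overlap were common in these data. In wild type 6 of 10 guidance genes had both IPs above both inputs and 0 had both below, against 36.1% and 33.6% of all genes. In ato 6 of 10 were above and 1 of 10 below, against 31.6% and 32.6%. With 2 libraries on each side, the smallest two-sided p of an exact permutation test is 0.33, and no such test was run.

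Since these genes are long, the ratios were also computed with the exon-length trend of each library removed. In that fit 3 genes rose in wild type, with log2 ratios of 0.67 for lea (edgeR BH-adjusted p = 0.0219), 0.79 for NetA (edgeR BH-adjusted p = 0.0139) and 0.66 for Sema-1a (edgeR BH-adjusted p = 0.00617). In wild type 2 genes also fell, with -0.75 for robo3 (edgeR BH-adjusted p = 0.0234) and -0.48 for Sema-2a (edgeR BH-adjusted p = 0.0188). In ato Sema-1a rose, at 0.58 (edgeR BH-adjusted p = 0.0203), and Sema-2a fell, at -0.57 (edgeR BH-adjusted p = 0.00968). The calls of sli (0.48 in wild type and 0.38 in ato), NetB (0.28 and 0.07) and, in ato, robo (0.12) were lost. The ratio of fra turned negative, at -0.15 in wild type and -0.40 in ato, and that of unc-5 turned to -0.28 in wild type.

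**Figure D3:**
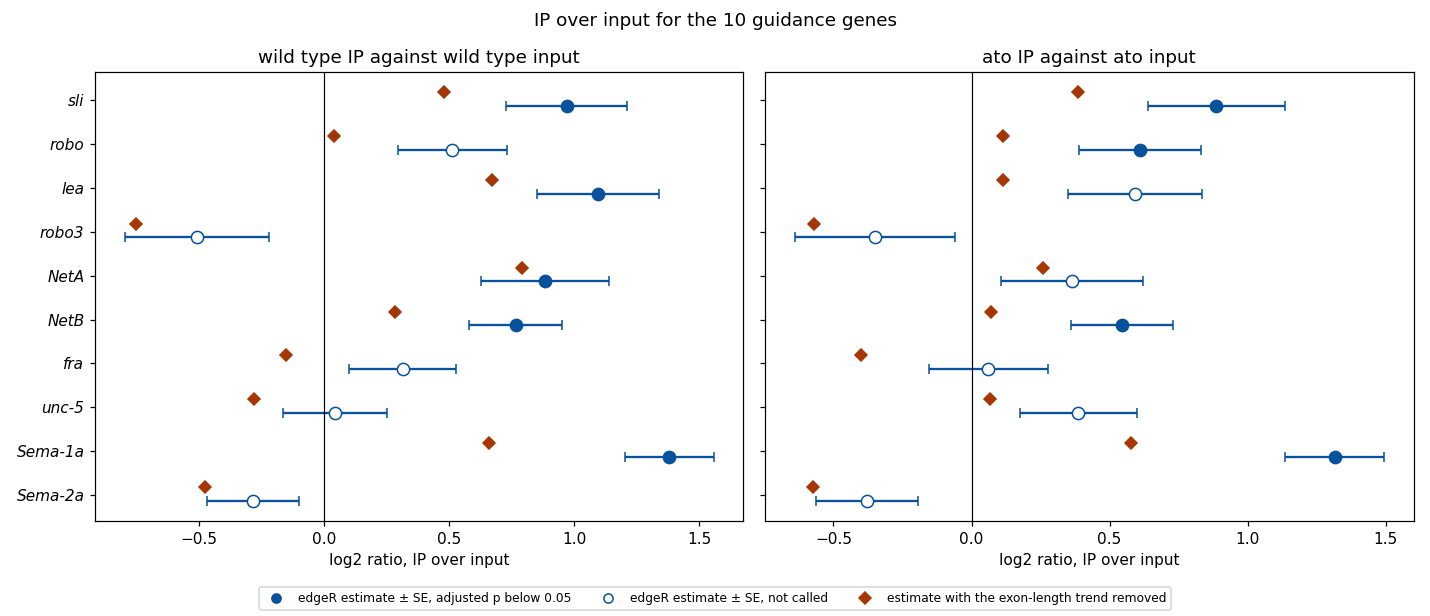
Log2 ratio of IP to input for each guidance gene in wild type (left) and ato (right), with circles for the edgeR estimate ± SE, filled where the adjusted p was below 0.05, and diamonds for the estimate after removal of the exon-length trend. Sema-1a lies at 1.38 and 1.31 before and at 0.66 and 0.58 after removal, and robo3 and Sema-2a lie below 0 in both.

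The second question was whether these RNAs differed between genotypes. In IPs 0 of 10 guidance genes were called, with all 10 estimates below 0, against a background of 2.82% of all genes higher and 1.88% lower in ato. Their median log2 ratio of ato to wild type was -0.20, beside -0.03 for all genes. At an unadjusted p below 0.05 stood 1 of 10 genes, namely fra, beside 17.4% of all genes, and neither DESeq2 nor limma-voom called any. Both ato IPs lay below both wild-type IPs for 4 genes, fra, NetA, robo and Sema-1a, and above for 0, against 23.8% and 21.7% of all genes. In ato IPs 7 of 9 muscle markers rose and 0 fell, 4 of 9 glial markers rose and 0 fell, and 2 of 8 T4/T5 markers fell and 0 rose. Of the glial estimates 3 of 9, none of them called, were below 0, so the summed glial level does not describe each marker. The part of these markers in the estimates of the guidance genes was not tested.

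The estimate farthest from 0 in IPs was that of fra, at -0.56 ± 0.22 (edgeR BH-adjusted p = 0.167), with a 95% interval of 0.493-fold to 0.928-fold. Without wild-type IP 2, whose 106 CPM was the lower of that pair, it was -0.83 (edgeR BH-adjusted p = 0.0321), and without wild-type IP 1 it was -0.25 and not called. For lea the estimate was -0.32 ± 0.24 (edgeR BH-adjusted p = 0.555), and it was -0.90 (edgeR BH-adjusted p = 0.0321) without ato IP 1 and 0.13 (edgeR BH-adjusted p = 0.919) without ato IP 2. The sign for robo3 also depended on single libraries, with -0.09 ± 0.29 in all, 0.64 without wild-type IP 1 and 0.045 without ato IP 1. Sema-1a was bounded more tightly, at -0.18 ± 0.17 with a 95% interval of 0.682-fold to 1.14-fold. For NetB the estimate of -0.05 ± 0.18 had an interval of 0.739-fold to 1.26-fold. Removal of the exon-length trend turned the estimates of NetB, robo, robo3 and Sema-1a to values between 0.01 and 0.15.

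In inputs 0 of 10 were called, 7 of 10 estimates were below 0, and the background was 4.64% higher and 2.34% lower. The median was -0.18, beside 0.01 for all genes, and DESeq2 and limma-voom called none. Both ato inputs were below both wild-type inputs for 4 genes, sli, robo, fra and unc-5, and above for lea, against 26.4% and 27.6% of all genes. The 1 gene at an unadjusted p below 0.05, beside 21.4% of all genes, was unc-5, whose inputs had 96.4 and 95.2 CPM in wild type and 60.8 and 69.2 CPM in ato. Its log2 ratio was -0.56 ± 0.21 (edgeR BH-adjusted p = 0.133), with a 95% interval of 0.499-fold to 0.923-fold. The adjusted p fell to 0.0484 without wild-type IP 1 and 0.0384 without wild-type IP 2 (edgeR BH). Neither library is in this contrast, but leaving one out changed the shared spread, the scaling and the number of genes tested, which was 10936 and 10846. In IPs the same gene was at -0.21 ± 0.21 (edgeR BH-adjusted p = 0.681).

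The difference between genotypes of the IP-over-input ratio was tested as an interaction, and 0 of 10 genes were called, with a background of 0%. None of the 10 had an unadjusted p below 0.05, and DESeq2 and limma-voom called none of them. Differences ran from -0.52 ± 0.36 for NetA to 0.34 ± 0.30 for unc-5 on the log2 scale, ato minus wild type. The calls of lea and NetA in wild type alone, and of robo in ato alone, were therefore not shown to differ between genotypes. For lea the difference was -0.50 ± 0.34, with an interval of 0.428-fold to 1.16-fold, and for Sema-1a it was -0.07 ± 0.25, with an interval of 0.663-fold to 1.38-fold.

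**Figure D4:**
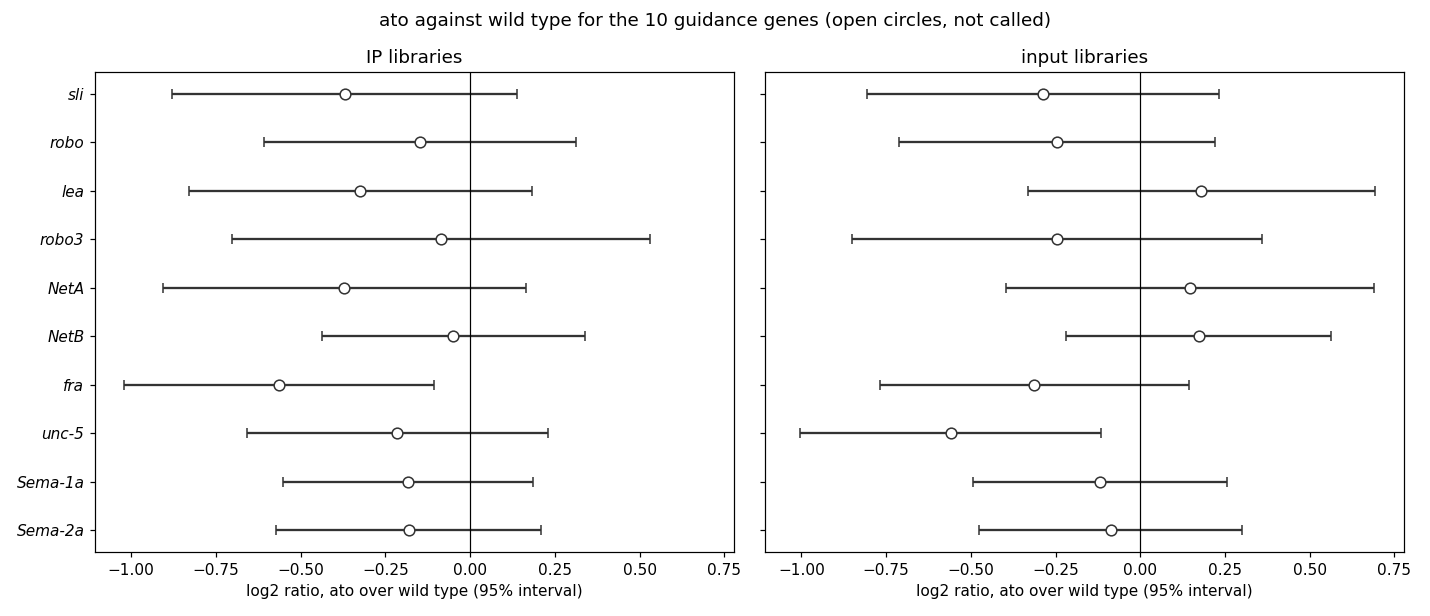
Log2 ratio of ato to wild type for each guidance gene in IPs (left) and inputs (right), as the edgeR estimate with its 95% interval. No gene was called, and the intervals of fra in IPs and unc-5 in inputs lie below 0 before adjustment.

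Replicates limited several of these values. Guidance genes higher in replicate 1 numbered 6 of 10 in wild-type inputs, 2 in ato inputs, 7 in wild-type IPs and 7 in ato IPs. The share over all genes was not computed. In wild-type IPs the median ratio of the higher to the lower replicate was 1.32, beside 1.21 over 7239 genes with a mean of at least 10 CPM. After robo3, the widest were unc-5 at 1.63, fra at 1.49 and Sema-2a at 1.45. In ato IPs lea differed 2.03-fold, beyond the 95th percentile of 1.68. Sema-1a and robo were the steadiest in wild-type IPs, with ratios of 1.03 and 1.00.

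Profiles over the 8 libraries were compared by the root mean square difference in log2 CPM after centring each gene. Among the guidance genes NetA and NetB were closest, at 0.179, followed by fra and unc-5 at 0.190, and robo3 and Sema-1a were farthest apart, at 1.00. Neither pair stood out from the rest of the genes. The nearest profile of another gene lay at 0.0796 for NetA, 0.0855 for NetB, 0.0829 for fra and 0.057 for unc-5. Among 7238 other genes, the profiles most like Sema-1a were those of kug (0.0798) and CG8949 (0.113). Those most like lea were CG15311 (0.133) and CG42345 (0.142), and those most like robo3 were CG12241 (0.120) and yemalpha (0.137).

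A list of 33 other genes of these pathways, 32 of them tested, was set beside the 10. It holds further semaphorins, plexins, Robo regulators and cytoplasmic effectors. In wild type 12 of 32 rose in IP over input and 4 fell, beside 17.3% and 18.4% of all genes, with a median of 0.38 beside 0.06. In ato 9 rose and 3 fell, beside 11.9% and 16.3%, with a median of 0.37 beside 0.02. The metalloprotease gene kuz, whose product cleaves Robo, rose by 1.66 ± 0.18 on the log2 scale in wild type (edgeR BH-adjusted p = 8.73e-06) and 1.06 ± 0.18 in ato (edgeR BH-adjusted p = 0.000467). The gene plexA, for the receptor of Sema-1a, rose by 0.91 ± 0.19 (edgeR BH-adjusted p = 0.00153) and 0.73 ± 0.19 (edgeR BH-adjusted p = 0.00924). Dscam, for a cell surface protein that also binds Netrin, rose by 1.62 ± 0.18 (edgeR BH-adjusted p = 1.03e-05) and 1.10 ± 0.18 (edgeR BH-adjusted p = 0.000323).

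Mical, for an oxidoreductase that acts on actin downstream of plexin A, rose by 1.16 in wild type and 0.95 in ato. The kinase gene Abl rose by 0.91 and 0.92, and comm2, of the commissureless family, by 1.23 and 1.67. The wild-type call of comm2 was lost without any 1 of the 4 wild-type libraries (edgeR BH-adjusted p = 0.0636 to 0.166), and that of ato was lost without ato input 1. Sema-5c, a further transmembrane semaphorin gene, rose by 0.81 in wild type. The adaptor gene dock fell in both, by 0.89 and 0.86 (edgeR BH-adjusted p = 0.000682 and 0.00122), and kermit fell by 0.80 and 0.84, although its ato call held in only 10 of 18 alternatives. Removal of the exon-length trend left 6 of 32 higher in wild type and 3 in ato. It ended the calls of Abl in both genotypes (edgeR BH-adjusted p = 0.0519 and 0.0768). The calls of Dscam and Mical ended in both as well. In wild type Dscam was at 0.205 and Mical at 0.0375 (edgeR BH-adjusted p = 0.402 and 0.885). In ato Dscam turned to -0.23 and Mical to -0.15. The ato call of plexA also ended, at 0.185 (edgeR BH-adjusted p = 0.379). The calls of kuz and dock held in 18 of 18 alternatives in both genotypes. Without wild-type input 2 the wild-type count was 6 higher and 1 lower, and without ato IP 1 the ato count was 3 higher and 1 lower.

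**Figure D5:**
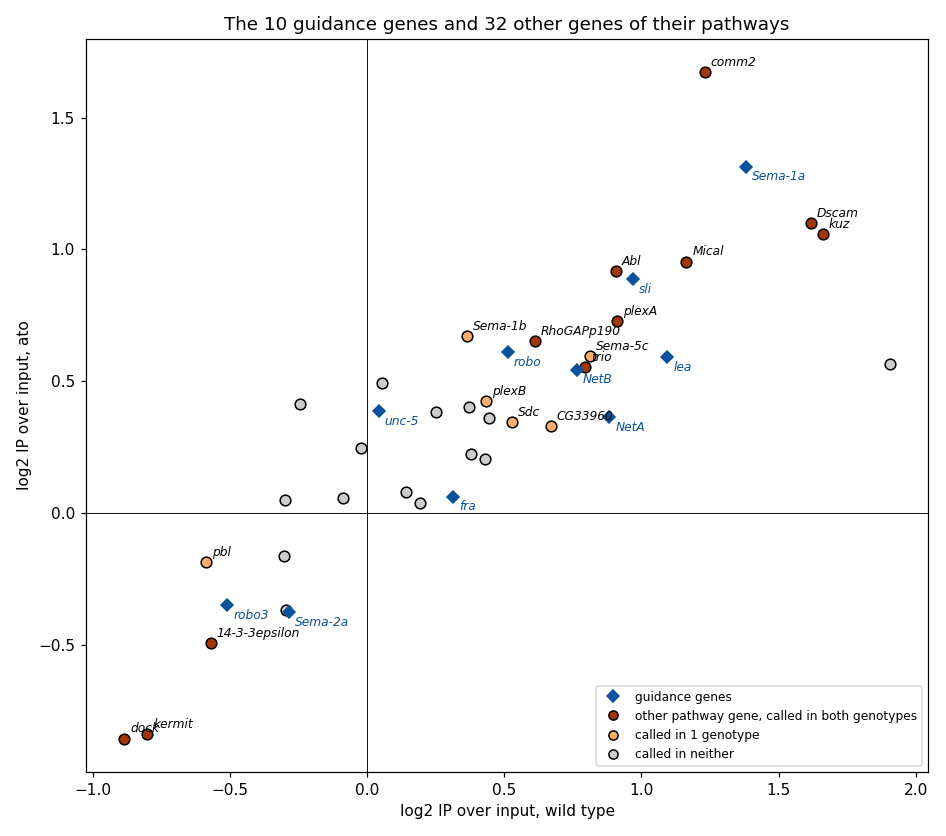
Log2 ratio of IP to input in wild type (horizontal) and ato (vertical) for the 10 guidance genes (diamonds) and 32 other genes of their pathways (circles, shaded by calls in both, 1 or neither genotype). Sema-1a lies at 1.38 and 1.31, near kuz and Dscam, and dock lies lowest at -0.89 and -0.86 among genes called in both.

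Between genotypes, 3 of the 32 fell in ato IPs and 0 rose, beside 1.88% and 2.82% of all genes, with a median of -0.33 beside -0.03. These were ena, for an actin regulator, at -0.80 ± 0.18 (edgeR BH-adjusted p = 0.0132), CRMP at -0.75 ± 0.20 (edgeR BH-adjusted p = 0.043) and kuz at -0.66 ± 0.18 (edgeR BH-adjusted p = 0.0426). In inputs 4 fell and 0 rose, beside 2.34% and 4.64% of all genes, with a median of -0.24 beside 0.01. They were the semaphorin gene Sema-1b (-0.67), the transmembrane pseudokinase gene otk (-0.65), ena (-0.64) and the GTPase gene Rac2 (-0.82), at edgeR BH-adjusted p of 0.0204 to 0.0399. The count in IPs dropped to 0 without ato IP 2 or with only the groups compared, and to 1 without either wild-type input, with DESeq2 size factors or with the length trend removed. The call of kuz there held in 7 of 18 alternatives, that of CRMP in 10 and that of ena in 16. The count in inputs dropped to 0 with run 1 alone and without ato input 1 or either library of wild-type input, and to 1 with the length or abundance trend removed. Without ato input 2 none of the 4 was called. For the interaction 0 of the 32 were called.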

How the data were processed

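The authors deposited a count of reads for each gene in each sequencing run. Their processing notes name TopHat2 2.0.12 and featureCounts 1.4.4. Counting used dm3 exons, a mapping quality of at least 5 and no strand option, per the file headers, so reads of a gene and its antisense partner cannot be told apart. The 4 runs of each library were summed to 8 libraries of 7780123 to 12238648 counts. Chi-square values per degree of freedom were 1.78 to 1.92 for runs and 9.48 to 31.3 for replicates.

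Counts were tested with edgeR 4.0.16 in R 4.3.3 (filterByExpr, TMM, quasi-likelihood F tests, 1 model over 4 groups), with Benjamini-Hochberg adjustment over 10224 genes and a threshold of 0.05. The script was checked on simulated counts. Alternatives used DESeq2 1.42.0 size factors or Wald test, limma 3.58.1 voom, no filter, only the groups compared, a replicate block, run 1 alone, removal of exon-length or abundance trends (loess, span 0.5) and each library left out. All 10 genes are named. Of the pathway list, a gene is named where called and among the 8 largest changes, and the 2 most similar profiles are named for genes the results turn on. The genes and lists were chosen with earlier results of these data known. Current names came from a Release 6 table, which gave no coordinates.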

Additional observations from a re-analysis of the deposited data

How the results depend on the processing

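Of the 50 estimates for the 10 guidance genes (5 comparisons each), 50 kept direction and side of the threshold with the abundance trend removed, 49 with limma-voom, 48 with DESeq2 size factors, the DESeq2 Wald test or no filter, 44 with run 1 alone and 33 with the exon-length trend removed. DESeq2 size factors shifted the median of all genes by 0.08 in wild-type and 0.11 in ato IP over input.

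With the length trend removed, guidance genes called were 3 higher and 2 lower in wild type and 1 higher and 1 lower in ato. Reversed were fra (-0.15 in wild type, -0.40 in ato) and unc-5 (-0.28 in wild type) for IP over input, NetB (0.15), robo (0.030), robo3 (0.091) and Sema-1a (0.0090) for ato over wild type in IPs, and Sema-1a (0.092) and Sema-2a (0.060) in inputs. In ato IP over input Dscam (-0.23) and Mical (-0.15) reversed. A version that also lets the overall level move, added after seeing the data, shifted the median of all genes by -0.21 in wild type and -0.16 in ato. It called 2 guidance genes higher and 3 lower in wild type and 0 higher and 3 lower in ato. Those called lower were robo3, Sema-2a and unc-5 in wild type and fra, robo3 and Sema-2a in ato. Reversed there for IP over input were fra (-0.35 in wild type, -0.55 in ato), robo (-0.17, -0.038), unc-5 (-0.48, -0.085), Dscam (-0.0045, -0.39) and Mical (-0.16, -0.30) in both, lea (-0.040) and NetB (-0.080) in ato, and NetB (0.10) and robo3 (0.027) for ato over wild type in IPs. Over all genes it called 3328 lower in wild type, 711 higher and 2628 lower in ato, 346 lower in ato IPs and 533 lower in ato inputs.

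Run 1 alone called unc-5 lower in ato inputs (1 of 10) and 157 genes lower there in all, and gave NetA -0.069 in inputs, robo 0.13 in IPs and unc-5 -0.038 for wild-type IP over input. It also called unc-5 higher (0.65) and did not call robo (edgeR BH-adjusted p = 0.137) in ato IP over input. Without the filter 452 genes were higher and 356 lower in ato IPs and 390 lower in ato inputs. Fitting only the groups compared left 114 lower in ato IPs. For the interaction, 1 gene was lower by the DESeq2 Wald test, 9 without the filter and 10 with the replicate block. The cause of these changes was not tested.

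Same-numbered libraries deviated together with a correlation of 0.04 (wild-type input and IP), 0.18 (ato input and IP), 0.11 (IPs) and 0.18 (inputs), and the labels do not say which input and IP share a homogenate, so the numbers were not taken to pair them. With the replicate block 1 guidance gene, robo3, was lower in wild-type IP (-0.61), robo was not called in ato (edgeR BH-adjusted p = 0.0545) and lea was (edgeR BH-adjusted p = 0.0394).

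With 1 library left out in turn, guidance genes called higher were 3 to 5 in wild type and 1 to 4 in ato, and lower 0 to 2 in wild type, 0 to 1 in ato IPs and 0 to 1 in ato inputs. Genes called over all were 903 to 1881 higher and 1162 to 2019 lower in wild type, 617 to 1221 and 1022 to 1888 in ato, 179 to 324 and 55 to 253 in ato IPs, 239 to 603 and 82 to 386 in ato inputs, and 0 to 3 lower for the interaction. Estimates that changed sign in at least 1 such fit ranged as follows. For IP over input, unc-5 ran from -0.37 to 0.35 and fra from -0.016 to 0.58 in wild type, and fra from -0.12 to 0.29 and lea from -0.0065 to 1.03 in ato. In ato over wild-type IPs, lea ran from -0.90 to 0.13, NetB from -0.21 to 0.11, robo3 from -0.57 to 0.64, Sema-2a from -0.43 to 0.11 and unc-5 from -0.53 to 0.18. In inputs, NetA ran from -0.013 to 0.32, NetB from -0.013 to 0.29, Sema-1a from -0.31 to 0.015 and Sema-2a from -0.18 to 0.0057. For the interaction, fra ran from -0.50 to 0.062, robo3 from -0.30 to 0.88, Sema-1a from -0.20 to 0.14, Sema-2a from -0.33 to 0.20 and sli from -0.35 to 0.20. A lone library was assumed to vary like the other groups.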
